A study of Mus musculus with 12 samples.

Results

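The AP-1 transcription factors described here were 10 genes taken by symbol from 31719 gene symbols in an RNA sequencing table: Jun, Junb and Jund (the Jun family), Fos, Fosb, Fosl1 and Fosl2 (the Fos family), Batf, and the small Maf proteins Maff and Mafk. They were listed by name, with earlier results of these data known, and each symbol matched 1 entry. The cells were RAW264.7, a transformed mouse macrophage line, labelled wild type in all groups. The 4 groups of 3 libraries were untreated cells, cells given an antibody against the surface protein CD36 (1:100), cells given the bacterial lipopolysaccharide LPS at 50 ng/ml, and cells given LPS with the antibody. No group held a control antibody, the time of treatment is not given, and whether libraries of 1 group are separate cultures is not stated, so p-values below measure only the spread between these libraries. Levels are FPKM, that is fragments scaled by the length of the gene model and by the depth of the library, given as mean ± SD with n = 3 libraries.

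AP-1 is not a single protein but a set of dimers of basic leucine zipper proteins. Jun proteins pair with each other or with Fos proteins, which cannot pair among themselves, while Batf pairs with Jun proteins and small Mafs, which lack an activation domain, pair with each other and with cap'n'collar factors such as the Nfe2 family. LPS acts through TLR4 and the MAP kinases JNK and ERK among others, which raise the transcription of Fos and Jun genes and modify their products. Fos and Jun are classic immediate early genes, whose transcripts are short-lived. CD36 is a macrophage surface protein that takes up oxidised lipoproteins and long-chain fatty acids.

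The promoters of 3 members are shown as examples of how the genes behaved below: Jun changed with LPS and again with the antibody, Fos was spread widely between LPS libraries, and Junb had the highest level in every group. Each sequence is the 250 bases before the gene's start on the gene's own strand, 5′ to 3′, from RefSeq on GRCm38.p6, with matches to the searched motifs in capitals.
Jun (chr4:95052223-95052472, minus strand): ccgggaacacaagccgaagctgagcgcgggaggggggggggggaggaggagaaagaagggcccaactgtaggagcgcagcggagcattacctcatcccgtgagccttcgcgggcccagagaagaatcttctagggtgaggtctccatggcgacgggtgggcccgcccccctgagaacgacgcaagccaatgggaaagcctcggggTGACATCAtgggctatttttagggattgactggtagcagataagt
Fos (chr12:85473640-85473889, plus strand): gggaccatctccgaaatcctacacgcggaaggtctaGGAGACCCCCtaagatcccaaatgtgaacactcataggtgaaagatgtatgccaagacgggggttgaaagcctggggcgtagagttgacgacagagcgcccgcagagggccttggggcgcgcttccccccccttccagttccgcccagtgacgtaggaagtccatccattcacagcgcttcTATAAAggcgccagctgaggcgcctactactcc
Junb (chr8:84978749-84978998, minus strand): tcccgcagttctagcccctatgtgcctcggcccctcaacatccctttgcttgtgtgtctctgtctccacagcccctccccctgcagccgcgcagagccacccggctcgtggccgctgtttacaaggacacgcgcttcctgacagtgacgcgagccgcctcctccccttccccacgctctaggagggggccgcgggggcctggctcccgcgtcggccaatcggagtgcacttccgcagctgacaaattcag

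Both strands were searched for the AP-1 site TGACTCA, the cyclic AMP response element TGACGTCA, the Jun-type site TGACATCA, TATAAA, and the named CArG box and NF-kB consensus. Of all 32851 windows of this length, 4.46% held TGACTCA, 1.55% TGACGTCA, 2.93% TGACATCA, 12.4% TATAAA, 1.47% a CArG box and 7.25% an NF-kB consensus match. The Jun window held TGACATCA from 45 to 38 bases before the start. The Fos window held TATAAA from 33 to 28 bases before the start and an NF-kB consensus match from 214 to 205 bases before it, and the Junb window held no match to any of the motifs. Of the 10 members, 9 had a window, and Maff had 3. The second Maff window held TGACGTCA from 29 to 22 bases before its start, the third held TGACATCA from 45 to 38 bases before its own, and TGACTCA was in no member's window. NF-kB consensus matches also lay in the windows of Fosl2, Fosb and the third Maff start. A match is a description of letters in these windows, and no binding was measured.

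Libraries held 30070450 to 54137810 fragments, recovered from the steps between FPKM values, and 14212 to 14878 genes above 0. Of 9 macrophage markers, 8 reached 1 FPKM in at least 3 libraries (Mertk did not), and their summed level ran from 3454 to 4423 FPKM in untreated, 4269 to 4567 in anti-CD36, 4147 to 5245 in LPS and 4639 to 4976 in LPS+anti-CD36 libraries. No marker of fibroblasts, epithelium, T cells, B cells, dendritic cells or neutrophils reached that level. All 5 epithelial markers were at 0, and the highest value of any such marker was 0.547 FPKM, for S100a8. For the members, replicate 1 was often the highest library of its group: for 9 of the 10 genes with LPS, 7 with anti-CD36, 7 with LPS+anti-CD36 and 2 without treatment. In bulk RNA, fewer cells expressing a gene and less RNA per cell cannot be told apart.

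In untreated cells Junb had the highest level, 33.8 ± 5.38 FPKM. Fosl2, whose product is known as Fra-2, followed at 8.71 ± 0.663 FPKM, then Jund at 7.59 ± 1.43, Mafk at 7.54 ± 0.607 and Jun at 6.46 ± 0.239 FPKM, and the libraries of Fosl2, Jund and Mafk overlapped in this order, while every Mafk library lay above every Jun library. Fos lay lower, at 2.70 ± 0.27 FPKM, followed by Fosl1, which encodes Fra-1, at 1.48 ± 0.0924 and Maff at 1.25 ± 0.144 FPKM, where the lowest Fosl1 and the highest Maff library were nearly equal. Fosb and Batf were near the lower limit of the data, at 0.164 ± 0.0427 and 0.102 ± 0.027 FPKM, and their libraries overlapped. Batf rested on 4 to 10 fragments per untreated library. FPKM is scaled by the length of the gene model, so these levels can be compared between genes only as far as the models fit the transcripts made.

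**Figure D1:**
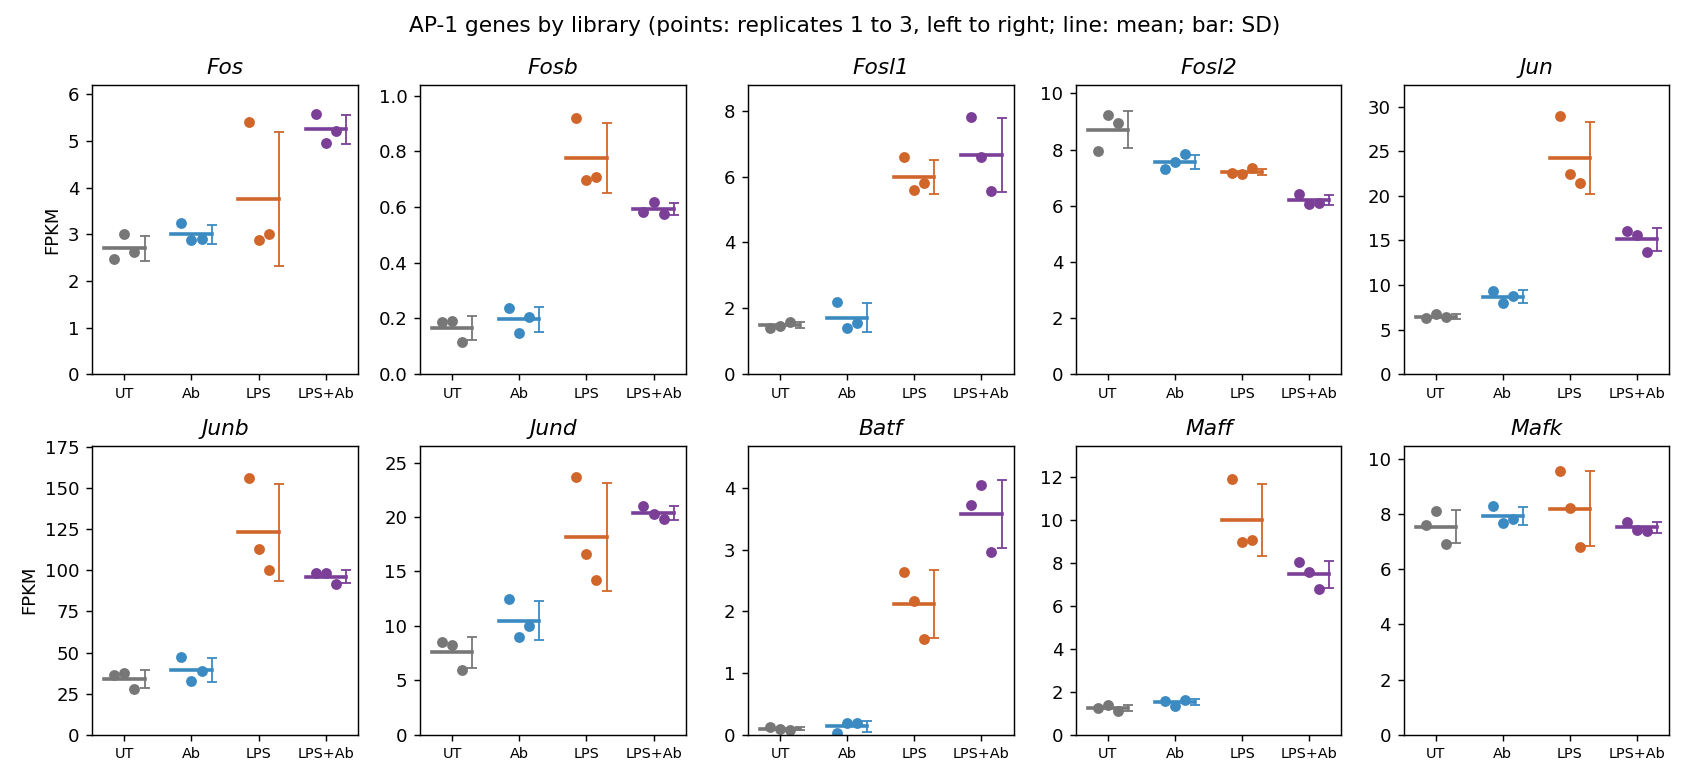
FPKM of the 10 AP-1 genes in each library (y axis, linear from 0, scaled per gene) by group (x axis): UT untreated, Ab anti-CD36, LPS, and LPS+Ab both. Points are replicates 1 to 3 from left to right, lines are means and bars SD with n = 3; LPS replicate 1 is the highest LPS library for 9 of the 10 genes.

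LPS alone was compared with no treatment to show the members' response to the ligand of TLR4. Maff, Batf, Fosl1, Jun, Junb and Jund rose, Fosl2 fell slightly, and Fos and Mafk did not pass the test. Changes were tested with limma on log2(FPKM + 1) in 1 model of all 12 libraries, and genes of at least 1 FPKM in at least 3 libraries were tested, with Benjamini-Hochberg adjustment over all of them and a call at an adjusted p under 0.05. Of the 9 members tested, 6 were called higher and 1 lower, where 49.8% of all 10276 genes tested were called (16.6% higher and 33.1% lower). Batf was tested only because its LPS libraries were high, so it had to differ. Over the 8 members at 1 FPKM or more in every library, 5 were higher and 1 lower, with a median change of 1.32, beside −0.14 over all genes tested. Groups did not overlap for 6 members above and 1 below, beside 49.6% of all genes (16.7% above and 32.9% below). With median-of-ratios scaling, which brings the median of all genes to 0.00, 2360 genes were called higher and 2194 lower in place of 1710 and 3403.

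All 3 Jun family genes rose. Jun, which encodes the c-Jun subunit, stood at 6.29, 6.74 and 6.36 FPKM in untreated libraries and at 28.9, 22.5 and 21.5 FPKM in LPS libraries. Every LPS library was above every untreated one, and the mean was 3.76-fold higher (log2 change 1.75 ± 0.11 SE, limma adjusted p = 1.27e-07). Junb, whose product is a weaker activator than c-Jun, went from 36.5, 37.4 and 27.7 FPKM to 156, 113 and 100.05 FPKM, a mean 3.64-fold higher (1.82 ± 0.18 SE, limma adjusted p = 4.91e-06). Jund, the Jun gene usually expressed in resting cells, measured 8.55, 8.28 and 5.95 FPKM without treatment and 23.7, 16.6 and 14.2 FPKM with LPS. Its ratio of means was smaller, 2.39 (1.14 ± 0.18 SE, limma adjusted p = 0.000231), and its groups did not overlap either.

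The Fos family did not move together. Fosl1 stood at 1.40, 1.46 and 1.58 FPKM in untreated libraries and at 6.59, 5.60 and 5.79 FPKM in LPS libraries, 4.05-fold higher (log2 change 1.49 ± 0.13 SE, limma adjusted p = 1.46e-06). Fosl2 went the other way, from 7.96, 9.23 and 8.93 FPKM to 7.18, 7.13 and 7.33 FPKM (−0.24 ± 0.07 SE, limma adjusted p = 0.0129). That call was lost with median-of-ratios scaling (−0.09, adjusted p = 0.272), in a fit of the 2 groups alone (adjusted p = 0.0862) and without untreated replicate 2 (−0.20, adjusted p = 0.062). Fos itself, the partner most often paired with c-Jun in textbook AP-1, measured 2.47, 3.00 and 2.63 FPKM without treatment and 5.42, 2.87 and 3.00 FPKM with LPS. LPS replicate 1 lay clearly above the untreated range, LPS replicate 3 was level with the highest untreated library (2.999 and 2.997 FPKM), and the groups overlapped. The change of Fos was 0.33 (95% interval −0.02 to 0.67, limma adjusted p = 0.108). It was 0.09 without LPS replicate 1 (adjusted p = 0.387), and 0.46 without LPS replicate 2 (adjusted p = 0.0446). With all libraries it was called higher with median-of-ratios scaling (0.45, adjusted p = 0.0449) and with each library's trend over GC content and gene length removed (0.40, adjusted p = 0.0183).

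Fosb never reached 1 FPKM and was not among the genes tested. It stood at 0.186, 0.192 and 0.115 FPKM in untreated and at 0.921, 0.696 and 0.709 FPKM in LPS libraries, 4.72-fold higher with no overlap. Its 12 values rested on 26 to 186 fragments each. In a fit without the filter on low values its change was 0.61 (limma adjusted p = 1.08e-05).

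Batf, a small AP-1 protein without an activation domain that pairs with Jun proteins, went from 0.131, 0.0946 and 0.0788 FPKM to 2.64, 2.17 and 1.55 FPKM with LPS. Summed over libraries and scaled by depth, its fragments were 19.8-fold higher (95% interval 12.3 to 33.9, counting error only), while the change on the log2(FPKM + 1) scale, which understates low genes, was 1.49 ± 0.13 SE (limma adjusted p = 1.99e-06). Of the small Mafs, Maff moved and Mafk did not pass the test. Maff stood at 1.25, 1.40 and 1.11 FPKM in untreated and at 11.9, 8.95 and 9.07 FPKM in LPS libraries, 7.96-fold higher (2.28 ± 0.11 SE, limma adjusted p = 1.12e-08). Mafk measured 7.61, 8.11 and 6.90 FPKM without and 9.55, 8.23 and 6.82 FPKM with LPS, with overlapping groups and a change of 0.10 (95% interval −0.12 to 0.32, limma adjusted p = 0.452). With the GC and length trend removed Mafk was called higher (0.21, adjusted p = 0.00394).

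**Figure D2:**
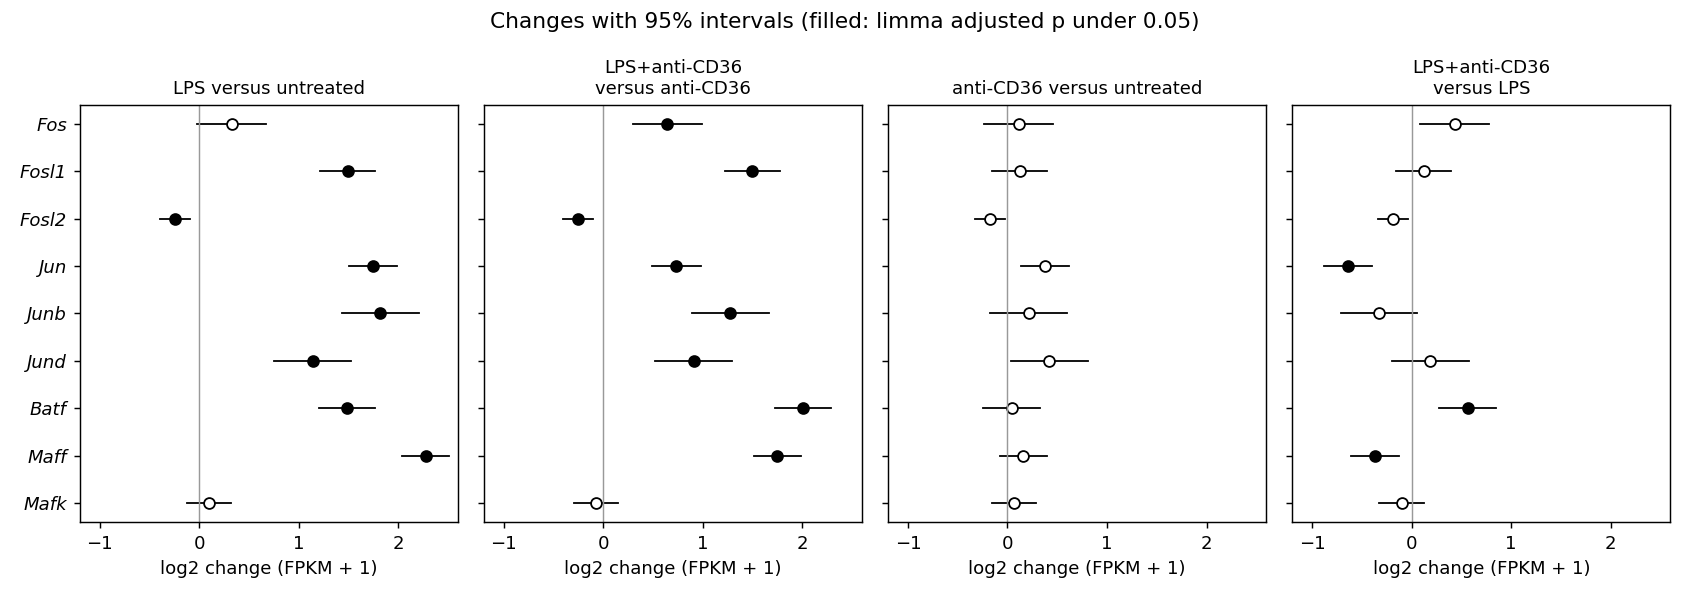
log2 change of FPKM + 1 (x axis) of the 9 AP-1 genes tested (y axis) in 4 comparisons, with 95% intervals from the limma model. Filled points passed an adjusted p under 0.05: 7 genes with LPS alone, 8 with LPS in the presence of the antibody, 0 with the antibody alone and 3 when it was added to LPS.

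The antibody alone was compared with no treatment to show whether anti-CD36 moved the members by itself. No member passed the test, where 0.341% of 10276 genes were called by limma (15 higher and 20 lower, and 11 and 5 when libraries were scaled to TPM, a fixed sum per library). At an unadjusted p under 0.05, 3 of the 9 members and 1969 of all genes passed. Jun stood at 9.36, 7.93 and 8.78 FPKM with the antibody, each library above the 6.29 to 6.74 FPKM of untreated cells (0.37, 95% interval 0.13 to 0.62, limma adjusted p = 0.15). Jund, at 12.5, 9.0 and 9.97 FPKM, also lay above its untreated range (0.42, 0.03 to 0.81, adjusted p = 0.237), and Fosl2, at 7.31, 7.55 and 7.83 FPKM, lay below (−0.18, −0.33 to −0.03, adjusted p = 0.21). Groups did not overlap for these 3 of 9 members and for 22.7% of all genes (12.1% above and 10.5% below).

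The other members overlapped between untreated and antibody-treated libraries. Junb measured 47.4, 32.7 and 38.6 FPKM with the antibody, Fos 3.23, 2.88 and 2.89, Fosl1 2.20, 1.39 and 1.57, Maff 1.58, 1.34 and 1.62, and Mafk 8.30, 7.68 and 7.83 FPKM. Their changes ran from 0.07 for Mafk to 0.22 for Junb. Batf was at 0.0374, 0.189 and 0.187 FPKM, on 2 to 8 fragments a library, and Fosb at 0.236, 0.149 and 0.205 FPKM. Over all genes the change in this comparison was ranked with GC content (Spearman rho 0.55 across genes) and inversely with gene length (−0.51). GC content was that of the longest transcript of each gene. It was 51.9% to 67.1% for the members, beside a median of 49.4% over genes tested. With each library's trend over GC content and length removed, Fos, Fosl1, Junb, Batf, Maff and Mafk changed sign (−0.20 for Batf to −0.004 for Fos).

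Cells given LPS with the antibody were compared with cells given LPS alone to show what anti-CD36 added. This comparison shares its LPS libraries with the one of LPS against untreated cells. Jun and Maff were lower, Batf was higher, and the other 6 members tested did not pass the test. Against a background of 15.5% of 10277 genes called (7.35% higher and 8.14% lower), 1 member was called higher and 2 lower. Scaling to TPM gave 387 genes higher and 790 lower in place of 755 and 837. Over the 8 members at 1 FPKM or more in every library, 0 were higher and 2 lower, and their median change was −0.15, beside 0.02 over all genes.

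Jun fell to 16.1, 15.7 and 13.7 FPKM with LPS and the antibody, all below the 21.5 to 28.9 FPKM of LPS alone. The ratio of means was 0.623 (log2 change −0.64 ± 0.11 SE, limma adjusted p = 0.00363). The call held in each of the 21 alternative analyses, between −0.78 and −0.51, with −0.51 without LPS replicate 1. Maff fell to 8.02, 7.58 and 6.78 FPKM from 11.9, 8.95 and 9.07, a ratio of 0.748 (−0.37 ± 0.11 SE, limma adjusted p = 0.0428), and its groups did not overlap. The Maff call was near the threshold and held in 8 of the 21 alternatives. It was lost without untreated replicate 2, without any 1 of the anti-CD36 libraries, the LPS libraries or the LPS+anti-CD36 libraries, with adjusted p up to 0.128 and a smallest change of −0.25 without LPS replicate 1. A pseudocount of 0.1 (adjusted p = 0.063), no filter on low values (0.0819) and a fit of the 2 groups alone (0.101) also lost it.

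Batf rose to 3.72, 4.04 and 2.97 FPKM from 2.64, 2.17 and 1.55, above the LPS range in every library. Its mean was 1.69-fold higher (0.56 ± 0.13 SE, limma adjusted p = 0.0163), and the call held in 12 of the 21 alternatives. It was lost without LPS replicate 2 (adjusted p = 0.053), LPS replicate 3 (0.057), LPS+anti-CD36 replicate 1 (0.0665) or LPS+anti-CD36 replicate 2 (0.076), and with the GC and length trend removed, which gave 0.30 (adjusted p = 0.104). TPM scaling (adjusted p = 0.0583), a pseudocount of 0.1 (0.106) and a fit of the 2 groups alone (0.065) also lost it. Without any 1 of those 4 libraries, 1 member was called in place of 3. Over all genes the change was ranked with GC content (Spearman rho 0.37 across genes) and inversely with length (−0.50).

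Fos was at 5.58, 4.96 and 5.22 FPKM with LPS and the antibody. LPS replicate 1, at 5.42, lay inside that range, and the other LPS libraries, at 2.87 and 3.00, lay below it. The change was 0.43 (95% interval 0.08 to 0.78, limma adjusted p = 0.0845), and 0.67 without LPS replicate 1 (adjusted p = 0.000576). Junb was at 98.4, 98.5 and 91.8 FPKM, each below the lowest LPS library, with a change of −0.33 (−0.71 to 0.06, adjusted p = 0.21). It was −0.14 without LPS replicate 1 (adjusted p = 0.475), and −0.50 with the GC and length trend removed (adjusted p = 0.00041).

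Fosl2 was at 6.41, 6.07 and 6.10 FPKM, below its LPS libraries (−0.19, limma adjusted p = 0.0818). Fosb, outside the test, was at 0.582, 0.616 and 0.576 FPKM, below the 0.696 to 0.921 FPKM of LPS alone. In the fit without a filter its change was −0.16 (limma adjusted p = 0.104). For Fosl1, at 7.81, 6.60 and 5.56 FPKM, Jund, at 21.03, 20.3 and 19.8, and Mafk, at 7.73, 7.43 and 7.38, the groups overlapped. Their intervals ran from −0.15 to 0.40 for Fosl1 and from −0.20 to 0.58 for Jund. Mafk, at −0.10, was called lower with the GC and length trend removed (−0.20, adjusted p = 0.0137). Counting tested members, groups did not overlap for 5 of 9, beside 36.1% of all genes (19.7% above and 16.4% below): Batf was higher, and Jun, Junb, Maff and Fosl2 were lower.

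The order of levels differed between the LPS groups. With LPS alone it ran from Junb (123 ± 29.5 FPKM) to Jun (24.3 ± 4.03), Jund (18.1 ± 4.95), Maff (9.97 ± 1.67), Mafk (8.20 ± 1.36), Fosl2 (7.21 ± 0.104), Fosl1 (5.99 ± 0.522), Fos (3.76 ± 1.43), Batf (2.12 ± 0.545) and Fosb (0.776 ± 0.127). Here the libraries of Jun and Jund overlapped, as did those of Maff and Mafk, Mafk and Fosl2, and Fos next to Batf came no closer than 2.87 and 2.64 FPKM. With both treatments Jund (20.4 ± 0.622 FPKM) lay above Jun (15.1 ± 1.3) in every library. Fosl1 (6.65 ± 1.12) and Fosl2 (6.19 ± 0.185) then overlapped, as did Maff (7.46 ± 0.627) and Mafk (7.51 ± 0.187).

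**Figure D3:**
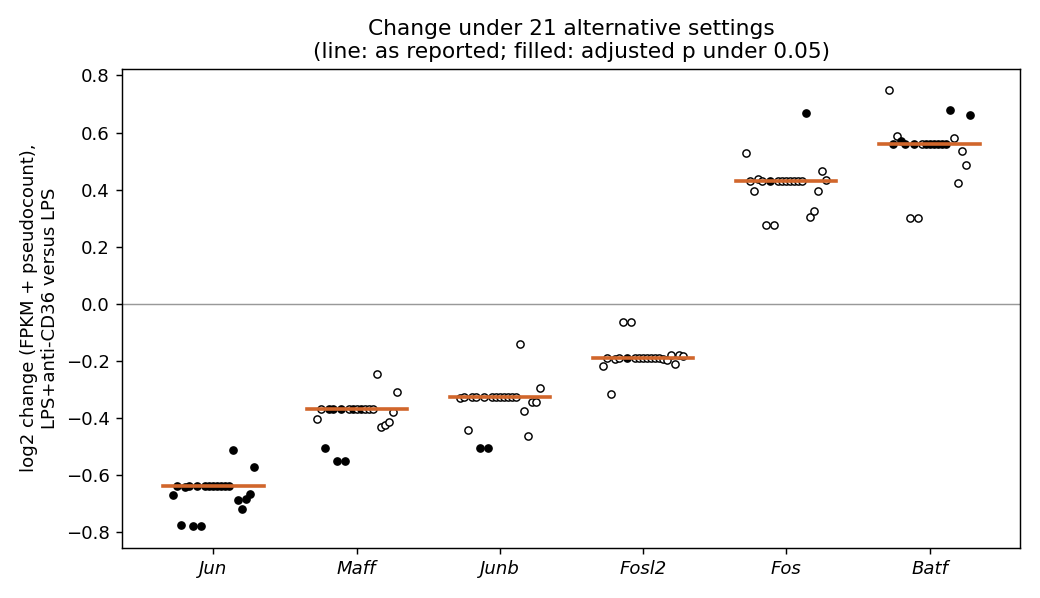
log2 change between LPS+anti-CD36 and LPS (y axis) of 6 AP-1 genes (x axis) under 21 alternative analyses, with the reported change as a line and filled points at an adjusted p under 0.05. Jun is filled in all 21, Batf in 12 and Maff in 8, and the filled Fos point of highest value leaves out LPS replicate 1.

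LPS was also compared within antibody-treated cells, LPS+anti-CD36 against anti-CD36. Of 9 members tested, 7 were called higher and 1 lower, where 47.5% of 10276 genes were called (16.3% higher and 31.3% lower, and 2258 higher and 2200 lower genes with median-of-ratios scaling in place of 1670 and 3212). Batf again passed the filter only through its LPS libraries. Its fragments were 27.2-fold higher (95% interval 17.1 to 46.2, counting error only). Over the 8 members at 1 FPKM or more in every library, 6 were higher and 1 lower, with a median of 0.82 beside −0.12 over all genes. Jun rose by 0.74 (limma adjusted p = 0.000181), Junb by 1.28 (9.16e-05), Jund by 0.91 (0.00128), Fosl1 by 1.49 (1.52e-06) and Maff by 1.75 (1.08e-07). Fos rose by 0.64 (adjusted p = 0.00553), and every library with LPS was above every library without it. Fosl2 was lower (−0.25, adjusted p = 0.0105), a call lost with median-of-ratios scaling (−0.13, adjusted p = 0.134) and with the GC and length trend removed (−0.09, adjusted p = 0.103). Mafk was at −0.07 (adjusted p = 0.609), and the groups of the other 8 did not overlap, beside 63.9% of all genes (21.6% above and 42.3% below).

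The interaction asked whether the change with LPS differed between cells without and with the antibody. Jun was the 1 member of 9 called, where 1.28% of genes were called (0.496% higher and 0.788% lower). TPM scaling gave 27 genes higher and 77 lower in place of 51 and 81. Jun rose by 1.75 without and by 0.74 with the antibody, a difference of −1.01 ± 0.16 SE (95% interval −1.36 to −0.67, limma adjusted p = 0.00636). The difference was called in each of the 20 alternatives, between −1.09 and −0.89, and its 2 parts lay on both sides: Jun levels were above untreated in each antibody library and below LPS in each LPS+anti-CD36 library. Maff (−0.53, adjusted p = 0.2), Junb (−0.54, adjusted p = 0.584), Batf (0.52, adjusted p = 0.358) and Fos (0.32, adjusted p = 0.891) did not pass. Fos passed without LPS replicate 1 (0.55, adjusted p = 0.0397), and Junb (−0.48, 0.0176) and Maff (−0.51, 0.00929) passed with the GC and length trend removed. Fosl1 rose by 1.49 in both settings.

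**Figure D4:**
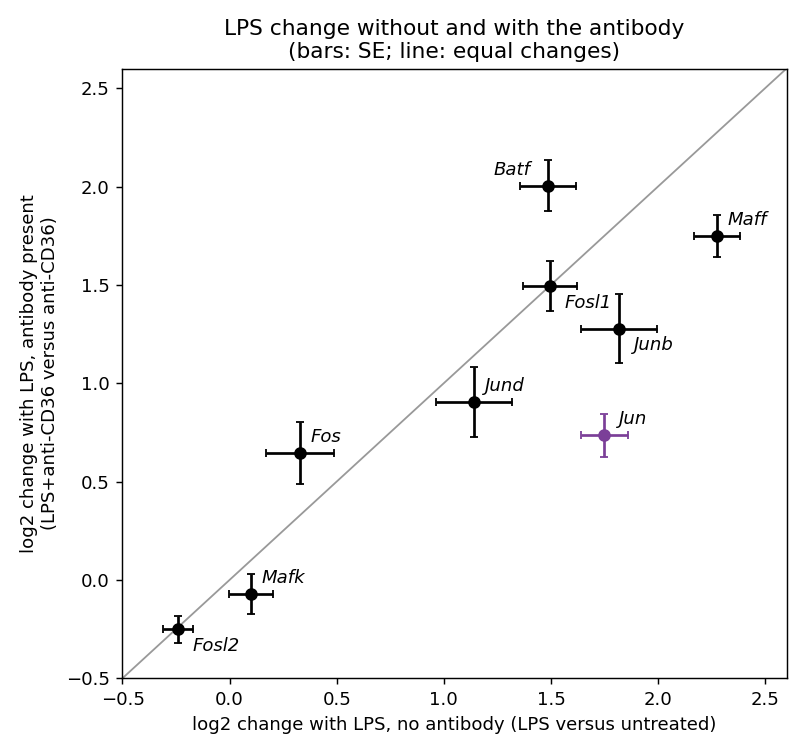
log2 change with LPS without the antibody (x axis) and with it (y axis) for the 9 AP-1 genes tested, with SE bars from limma and a line at equal changes. Jun, in purple, lies farthest below the line (1.75 against 0.74), Fosl1 lies on it, and Batf lies above it (1.49 against 2.00).

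The make-up of each family by summed FPKM was described without a test. The Jun family summed to 47.9 ± 6.9 FPKM in untreated, 58.7 ± 9.89 in anti-CD36, 165.5 ± 38.5 in LPS and 132 ± 5.63 in LPS+anti-CD36 cells. Junb held most of it in every group, from 67.2% with the antibody to 74.3% with LPS. The share of Jun was 14.8 ± 0.99% with LPS and 11.5 ± 0.51% with LPS and the antibody, and the libraries did not overlap, while that of Jund was 10.9 ± 0.44% and 15.5 ± 0.37%. The Fos family summed to 13.1, 12.5, 17.7 and 18.7 FPKM in the same order of groups. Fosl2 went from 66.7% of it in untreated cells to 41.0% with LPS and 33.2% with both, while Fosl1 went from 11.4% to 33.9% and 35.4%. Fos held 20.7% in untreated cells, 20.8 ± 5.33% with LPS and 28.2 ± 1.5% with both. LPS replicate 1, at 27.0%, lay just below the latter libraries.

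**Figure D5:**
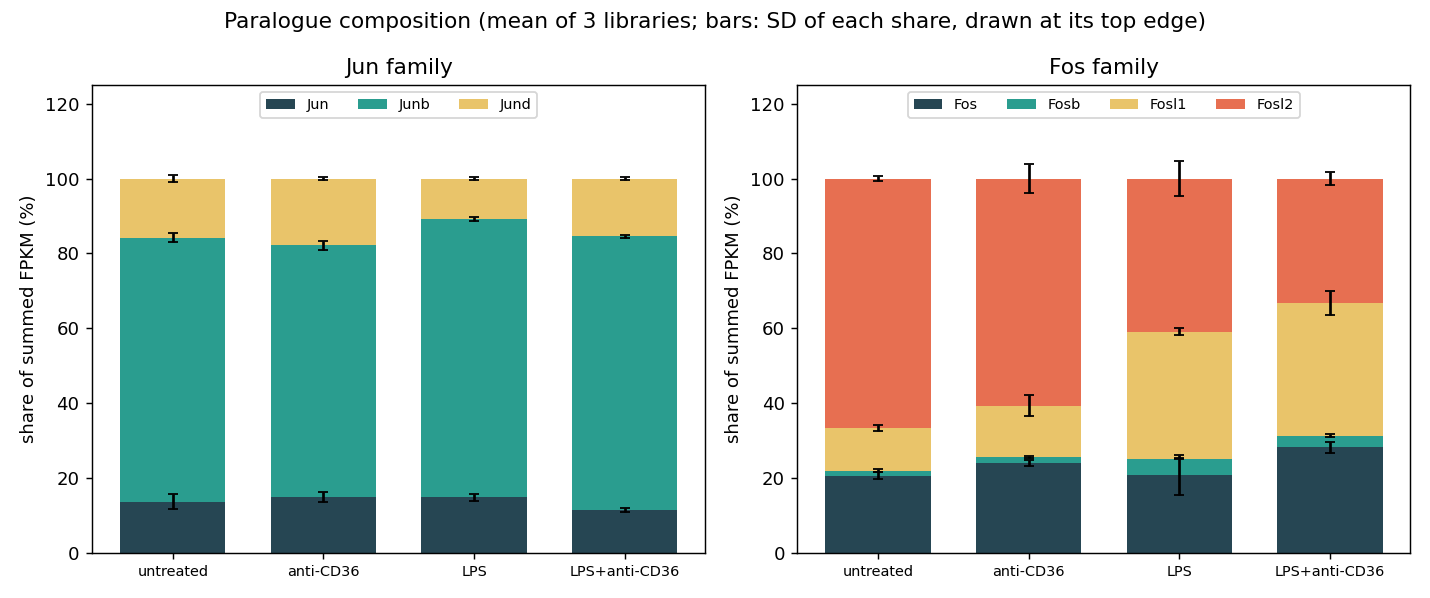
Share of each gene in the summed FPKM of its family (y axis, percent, from 0) by group (x axis), as means of 3 libraries, with the SD of each share drawn at its top edge. In the Fos family Fosl2 shrinks from 66.7% to 33.2% and Fosl1 grows from 11.4% to 35.4% between untreated and LPS+anti-CD36 cells.

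Other leucine zipper factors that pair with AP-1 proteins were taken from a list of 16 genes, of which 9 could be tested. With LPS, Atf3, Batf2, Jdp2, Mafg and Nfe2l1 rose and Nfe2l2 fell. That was a share called of 66.7% beside 49.8% of all genes (16.6% higher and 33.1% lower). Batf2 passed the filter only through libraries with LPS, so it had to rise. Over the 8 genes of the list at 1 FPKM or more in every library, 4 rose and 1 fell. Atf3, a stress-induced factor that represses many inflammatory genes, was at 4.91 ± 0.242 FPKM in untreated, 4.74 ± 1.09 in anti-CD36, 81.4 ± 3.27 in LPS and 34.5 ± 0.537 in LPS+anti-CD36 cells. It rose by 3.80 with LPS (limma adjusted p = 1.54e-10), was lower when the antibody was added to LPS (−1.21, adjusted p = 4.03e-05), and had an interaction of −1.16 (adjusted p = 0.00263), with signs as for Jun in these 3 comparisons, which share libraries. Batf2 was higher with the antibody added to LPS (1.63 against 1.10 FPKM, adjusted p = 0.0376), and Atf7 was lower (3.56 against 5.69 FPKM, adjusted p = 0.00603). With Atf3 they made a share called of 33.3%, beside 15.5% of all genes. Among the 8 genes at 1 FPKM or more in every library, which leave out Batf2, 0 were higher and 2 lower. No gene of the list was called with the antibody alone. The list's median change between LPS+anti-CD36 and LPS was −0.24, beside 0.02 over all genes.

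Of 28 genes of the MAP kinase cascades that act on AP-1 proteins, 27 were tested, and 5 rose and 9 fell with LPS, a share called (51.9%) near the 49.8% of all genes. When the antibody was added to LPS, Map2k3 was called higher and Map2k1, Map3k1, Map3k2 and Map3k3 lower. That share was 18.5%, near the 15.5% of all genes. Map3k1, which encodes a kinase upstream of JNK, was at 8.52 ± 1.66 FPKM in untreated, 6.61 ± 1.17 in anti-CD36, 9.22 ± 1.04 in LPS and 3.99 ± 0.243 in LPS+anti-CD36 cells (−1.03 against LPS, limma adjusted p = 0.00076). Map2k1, which encodes the ERK kinase MEK1, rose from 39.7 ± 0.266 to 63.4 ± 1.41 FPKM with LPS and was at 44.8 ± 1.83 FPKM with both (−0.49, adjusted p = 0.00566). Map2k6 fell from 1.32 ± 0.214 to 0.19 ± 0.0227 FPKM with LPS, but it passed the filter only through libraries without LPS, so it had to fall. Over the 25 genes of the list at 1 FPKM or more in every library, 5 rose and 8 fell with LPS. No gene of the list was called with the antibody alone or in the interaction. Its median change between LPS+anti-CD36 and LPS was −0.10.

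Factors that act at the promoters of Fos and Jun (SRF, its TCF and MRTF partners, CREB, CRTC and MEF2 proteins) numbered 13, all tested. With LPS, Crem, Crtc2 and Elk1 rose and Mef2c and Mrtfa fell, a share called of 38.5%, below the 49.8% of all genes. Crem went from 1.32 ± 0.225 to 3.49 ± 0.281 FPKM and Mrtfa from 8.73 ± 0.365 to 4.83 ± 0.483 FPKM. Adding the antibody to LPS gave a higher Crem (4.64 ± 0.421 FPKM, limma adjusted p = 0.0457) and a lower Mrtfb (1.35 ± 0.197 against 2.48 ± 0.18 FPKM, adjusted p = 0.00192). Crem and Mrtfb made a share called of 15.4%, beside 15.5% of all genes. Of 17 genes of AP-1 protein turnover and mRNA decay, 16 were tested, and 6 rose and 2 fell with LPS. That was a share called of 50.0% beside 49.8% of all genes, of which 16.6% were higher and 33.1% lower. Zfp36, which encodes tristetraprolin, a protein that destabilises AU-rich mRNAs, rose from 9.85 ± 0.699 to 83.7 ± 13.3 FPKM, and its relative Zfp36l2 fell from 35.1 ± 2.2 to 10.4 ± 0.528 FPKM. Trib3 and Zfp36l1 were among those lower with the antibody added to LPS, where 18.8% of the genes tested were called beside 15.5% of all genes. The interaction was called for Zfp36l1 (−0.75, adjusted p = 0.00394), at 38.3 ± 2.47 FPKM with LPS and 20.4 ± 1.02 with both, and for Trib3 (−1.29, adjusted p = 0.0407).

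Textbook AP-1 target genes, a list of 26 with 20 or 21 tested, were counted in the same comparisons. With LPS 19 of 20 were called higher and 0 lower, beside 16.6% and 33.1% of all genes. Of these 20, 8 were under 1 FPKM in at least 1 library, and several of them, such as Csf2 and Il1b, were tested only through libraries with LPS and had to rise. Over the other 12, which reached 1 FPKM in every library, 11 rose and 0 fell (median 2.23). When the antibody was added to LPS, 10 of 21 were called higher and 2 lower, beside 7.35% and 8.14% of all genes. Over the same 12 genes 2 were higher and 2 lower, with a median of 0.09 beside 0.02 over all genes. Csf2, the gene of the growth factor GM-CSF, went from 34.2 ± 0.782 to 69.8 ± 1.65 FPKM (1.01, limma adjusted p = 3.05e-06). The chemokine Cxcl2 went from 424.5 to 1036 FPKM (1.28, adjusted p = 9.07e-06) and Il6 from 3.96 ± 0.241 to 19.9 ± 0.845 FPKM (2.07, adjusted p = 8.58e-08). Plau, which encodes urokinase, and Vegfa fell, from 60.5 to 37.6 FPKM (−0.67, adjusted p = 0.0015) and from 31.0 to 14.3 FPKM (−1.06, adjusted p = 2.13e-05). These were the 2 called lower in the interaction as well, and 5 (Csf2, Il1b, Il23a, Mmp13 and Timp1) were called higher there, none of them among those 12. Of all genes, 0.788% were called lower and 0.496% higher in the interaction. With the antibody alone 1 of 20 rose, Cxcl2, beside 0.146% of all genes. Many of these genes are also targets of NF-kB, and the list was drawn up with earlier results of these data known.

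For each member whose group means spanned at least 1 on the log2(FPKM + 1) scale, the genes of most similar pattern over the 12 libraries were found among 1552 genes of like span, by Pearson's r. These values are descriptive, since the libraries fall into those with and without LPS and all genes share them. Jun was most like Myo1d (r = 0.984), Smox (0.983) and Trib3 (0.983), and Trib3 was also among the 3 genes most like Junb, with Sqstm1 and Bbc3 (0.992 and 0.991). Maff was most like Sesn2 (0.998), Cdkn1a (0.998) and Arap1 (0.998). Batf was most like the chemokine Ccl17 (0.995), at 12.0 ± 3.34 FPKM with LPS and 30.1 ± 6.55 with both, followed by Col5a3 and Rhob. Fosl1 was most like Sik3, Dhx58 and Isg20, and Jund like Ube2l6, Nfkbil1 and Vasp. Among the members, Junb and Maff were the most alike (0.99), followed by Fosl1 and Maff (0.97) and by Jun and Junb (0.97). Fosl2 ran against Fos, Fosl1, Jun, Junb, Jund, Batf and Maff, at −0.63 to −0.86.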

How the data were processed

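RNA from 12 libraries of RAW264.7 cells was sequenced, and 1 table of FPKM values computed by the authors and deposited with 1 column per library was used. The submitters' processing notes name the aligner HISAT2 2.0.5 and, with no role given, mm39 and hg38. Counting, annotation and strand setting are not given in the sources used here. Repeated symbols were reduced to their highest-mean entry (82 dropped). Depths, and whole fragments within 0.005, were recovered from FPKM steps with exon-union lengths of GENCODE M21 (Python 3.11.15, numpy 2.4.6, pandas 2.3.3). All 10 members were whole in all 12 libraries, Jund at 1667 bases where the annotation has 1668. Gene models with the annotated coordinates are on GRCm38: Jun is at 4:95049034-95052222 (1 exon, minus strand), Fos at 12:85473890-85477273 (plus) and Junb at 8:84974484-84978718 (minus).

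limma 3.58.1 (R 4.3.3, intensity trend) was fitted to log2(FPKM + 1) with 4 group means and no covariates, over 10277 genes of at least 1 FPKM in at least 3 libraries. The fit was also run on simulated data. Their noise was drawn independently per gene and library with no GC or length trend, so that run does not cover such trends. Il6 was left out of every comparison that contrasts untreated or anti-CD36 libraries, since its 6 values there equal those of Gm10874. Those 6 values still entered the estimate of spread behind the Il6 test of LPS+anti-CD36 against LPS. Intervals are 95% and, for fragments, cover counting error only. The members and lists were chosen with earlier results of these data known. All members were named; from each further list, up to 3 genes of smallest p with LPS and up to 3 with the antibody added to LPS, plus Atf3. Other genes are named because they make up a count and were chosen after their values were seen. A gene of the further lists is not reported here. Alternatives were a pseudocount of 0.1, no filter, TPM and median-of-ratios scaling, no trend, GC and length trends removed, a replicate block, fits of the compared groups only and each library left out.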

Additional observations from a re-analysis of the deposited data

Results flagged for a closer look

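Jun was the 1 member whose change with LPS differed between cells without and with the antibody by a test of the difference itself. The change was 1.75 without and 0.74 with the antibody, and the interaction was −1.01 ± 0.16 SE (limma adjusted p = 0.00636). All 3 antibody libraries (7.93 to 9.36 FPKM) lay above the untreated ones (6.29 to 6.74), and all 3 libraries with both treatments (13.7 to 16.1) lay below those with LPS alone (21.5 to 28.9). The interaction was −0.89 without LPS replicate 1, the library of highest Jun level.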

How the results depend on the processing

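Whether the replicate numbers pair the libraries is not stated, and the values were mixed. Deviations from group means correlated by 0.45 to 0.78 among libraries numbered 1. They correlated by −0.32 to 0.43 among those numbered 2 and by −0.07 to 0.81 among those numbered 3. With a replicate block, 2 members were called for the antibody alone (Jun, adjusted p = 0.0336, and Jund, 0.045) in place of 0, and 5 when it was added to LPS in place of 3 (Fos, 0.0329, and Fosl2, 0.0487, joined). The block gave 1164, 3646 and 212 genes for the antibody alone, the antibody added to LPS and the interaction, in place of 35, 1592 and 132, and with the GC and length trend also removed it gave 990, 3548 and 529. Removing that trend without the block gave 451, 2443 and 393. With it removed, with or without the block, 3 members were called in the interaction in place of 1, all 9 with LPS in place of 7, 0 for the antibody alone, and 4 lower and 0 higher for the antibody added to LPS (Jun, Junb, Maff and Mafk).

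Fitting only the groups compared gave 0 genes for the antibody alone by limma (1716 at an unadjusted p under 0.05) and 940 when it was added to LPS, with 1 member called there, as with a pseudocount of 0.1. TPM scaling gave 16 genes for the antibody alone. Leaving out 1 library at a time gave 1 to 131 genes for the antibody alone, where leaving out LPS replicate 1 gave 131 and 1 remained without anti-CD36 replicate 3 and likewise without replicate 2 or 3 of the untreated cells. It gave 586 to 3980 genes, and 1 to 3 members, for the antibody added to LPS, where leaving out LPS replicate 1 gave 3980 and each of the other LPS and LPS+anti-CD36 libraries gave 586 to 849. For the interaction it gave 77 to 161 genes and 1 to 2 members, the second member being Fos without LPS replicate 1. Total calls with LPS, without or with the antibody, stayed within 1.5 times the reported counts in the alternatives run. Their split did not: with the block and the trend removed, 2727 genes were higher in place of 1710 without the antibody and 2690 in place of 1670 with it, and median-of-ratios scaling gave 2194 lower in place of 3403.

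Signs turned for changes near 0. For the antibody alone with the GC and length trend removed, with or without the block, they became −0.0043 (Fos), −0.11 (Fosl1), −0.027 (Junb), −0.20 (Batf), −0.036 (Maff) and −0.057 (Mafk). Mafk was −0.012 there with TPM scaling. Fosl1 ran from −0.0011 to 0.21 with 1 library left out, the lowest without anti-CD36 replicate 1. For the antibody added to LPS, Fosl1 was −0.10 with that trend removed and Mafk ran from −0.21 to 0.0029 with 1 library left out, the highest without LPS replicate 1. For LPS alone Mafk ran from −0.0052, without LPS replicate 1, to 0.21. With LPS in antibody-treated cells it was 0.058 with median-of-ratios scaling and 0.060 with the trend removed. The interaction of Fosl1 was 0.011 with the trend removed and ran from −0.11 to 0.12 when 1 library was left out, and that of Fosl2 was 0.048 and ran from −0.051 to 0.045. The cause was not tested. A library held 4 to 10 Batf fragments in untreated and 2 to 8 in antibody-treated cells, so changes of Batf between these were limited by depth.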
